A study of Homo sapiens with 33 samples.

Results

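H3K27, lysine 27 of histone H3, can carry either methyl or acetyl groups. The 9 genes examined encode enzymes outside PRC2 that write or erase these marks or, for KMT2C and KMT2D, methylate H3K4 instead. They were examined in K562 cells, a human erythroleukemia line with wild-type genotype and no antibody or knock-out applied. The genes were chosen by name: the acetyltransferases EP300 and CREBBP, the H3K27 demethylases KDM6A and KDM6B, the deacetylases HDAC1, HDAC2 and HDAC3, and the H3K4 methyltransferases KMT2C and KMT2D. Each symbol matched 1 entry, so they are 9 of the 58293 entries of the gene table. The table holds FPKM, a fragment level corrected for transcript length and library size, of the RNA used as RIP-seq input, in 1 library. A further 4 libraries, of cytoplasmic, nuclear, nuclear polyA+ and nuclear polyA- RNA of the same wild-type cells, give the reads on 900 listed RNA fragments that were enriched with EZH2 antibody. RIP-seq sequences the RNA that is pulled down with a protein. Every group was thus 1 library of 1 cell line, and no test between groups or replicate error could be given.

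PRC2 with its catalytic subunit EZH2 places methyl groups on H3K27, which marks repressed chromatin. KDM6A and KDM6B remove the di- and trimethyl forms, after which EP300 and CREBBP can acetylate the same residue at active enhancers and promoters. KMT2C and KMT2D monomethylate H3K4 at enhancers and bring KDM6A in the same complex, and HDAC1, HDAC2 and HDAC3 take acetyl groups off again. Since both marks use 1 residue, the demethylases and acetyltransferases work against PRC2, whereas the deacetylases clear the residue for it. KMT2C and KMT2D do not act on this residue themselves but carry KDM6A in their complex.

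The cell identity was checked on marker genes. All 12 erythroid and K562 markers had an FPKM of at least 1, from 4.73 (HBA1) to 218 (HBG2). Of 15 markers of T cells, B cells, fibroblasts, epithelium and hepatocytes, 12 were below 1, and the exceptions were EPCAM (27.9), CD3D (6.29) and COL1A2 (1.25). The CDH1, CD79A and APOA1 entries were listed at 0. Reads on the listed fragments summed to between 7929 (cytoplasmic) and 106051 (nuclear polyA-) a library. These sums are not library totals, and the depth of the input library is unknown because only FPKM are given.

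All 9 genes were detected, over a 20.2-fold range of FPKM. HDAC2 was the highest with an FPKM of 40.2 and KDM6B the lowest with 1.99, and the median of the 9 was 16.4. The level reached an FPKM of 1 in 9 of 9 genes, against 21.8% of all entries and 49.2% of the protein-coding entries. It reached 5 in 8 of 9, against 11.8% of all entries, and the share of protein-coding entries at 5 was not computed. Entries at 1 or more had a median FPKM of 5.77, and the protein-coding ones among them had 7.49. The error given with each level is the pair of confidence bounds deposited with the FPKM. It describes the estimate in this library and not the spread between cultures.

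**Figure D1:**
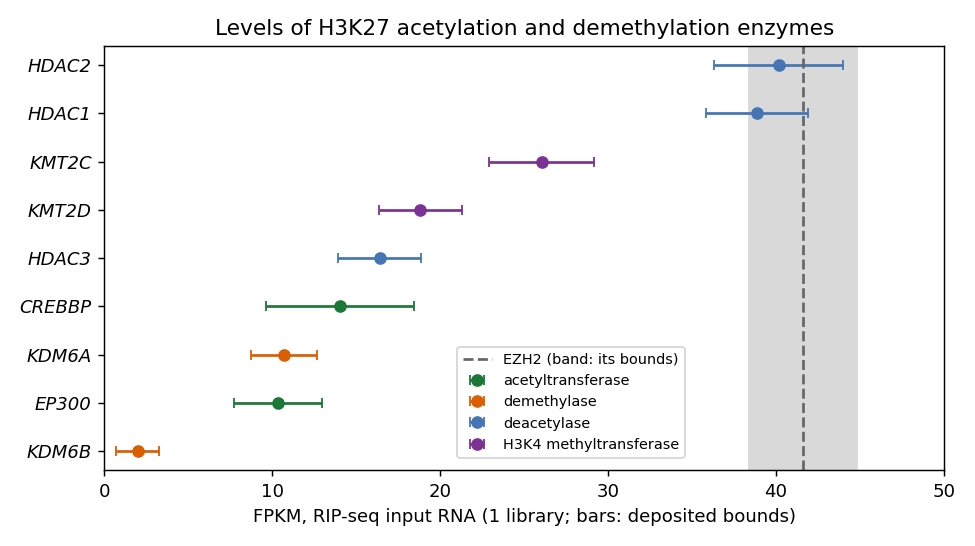
FPKM of the 9 genes in the RIP-seq input RNA (x axis, 1 library), with points for the estimate, bars for the deposited confidence bounds and colors for the enzyme class. The dashed line and gray band show EZH2 at 41.6 (38.4 to 44.8), which overlaps HDAC1 and HDAC2 and lies above the other genes.

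Among the acetyltransferases, CREBBP had an FPKM of 14.1 (bounds 9.65 to 18.5). EP300, its close paralog, had 10.4 (7.74 to 13.0). The bounds overlapped, with a ratio of CREBBP to EP300 of 1.36 that ranged from 0.744 to 2.38 between the opposite ends of the bounds. The order of the pair was therefore not resolved. CREBBP lies on chromosome 16 from 3725054 to 3880726 on the minus strand of GRCh38, and EP300 on chromosome 22 from 41091786 to 41180079 on the plus strand. Both estimates were wide, with half-widths of 31.3% and 25.3% of the FPKM, and among the 9 genes only KDM6B was wider.

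The demethylases differed most within a class. KDM6A, also called UTX, had an FPKM of 10.7 (8.75 to 12.7), at the level of EP300. KDM6B, also called JMJD3 and known as an inducible gene, had 1.99 (0.702 to 3.28), and its upper bound was below the lower bound of every other gene examined. The ratio of KDM6A to KDM6B was 5.37, with a range of 2.67 to 18.0 from the bounds. The half-width of KDM6B was 64.7% of its FPKM, the widest of the 9, and its lower bound was under 1. KDM6A spans 239 kb of chromosome X from 44873177 to 45112602 and KDM6B spans 14.9 kb of chromosome 17 from 7839904 to 7854796, both on the plus strand.

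The KDM6B entry begins near the downstream one of the 2 RefSeq start sites of the gene. RefSeq on GRCh38.p14 gives KDM6B a start at 7834217, which lies 5687 bp upstream of the deposited span, and another at 7839917, 13 bp inside it. GENCODE 44 begins the gene at 7834217, so 1 of the 24 exons of its canonical transcript, with 134 of 6728 exonic bases, lay outside the span behind the FPKM. In KMT2D 1020 of 20635 exonic bases lay outside the span and in KDM6A 177 of 6094. The promoter sequences, from 250 bases before to 50 after each start, are printed 5′ to 3′ to show how the KDM6B starts differ from each other and from that of KDM6A, with each CpG in capitals.
KDM6B, upstream start, chr17:7833967-7834266, plus strand: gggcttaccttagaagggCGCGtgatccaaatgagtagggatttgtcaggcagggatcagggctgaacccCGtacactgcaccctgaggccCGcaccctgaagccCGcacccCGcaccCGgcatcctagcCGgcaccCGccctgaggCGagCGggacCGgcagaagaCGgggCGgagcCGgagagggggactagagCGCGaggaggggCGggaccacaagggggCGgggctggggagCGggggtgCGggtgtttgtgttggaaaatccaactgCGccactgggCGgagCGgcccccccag
KDM6B, downstream start, chr17:7839667-7839966, plus strand: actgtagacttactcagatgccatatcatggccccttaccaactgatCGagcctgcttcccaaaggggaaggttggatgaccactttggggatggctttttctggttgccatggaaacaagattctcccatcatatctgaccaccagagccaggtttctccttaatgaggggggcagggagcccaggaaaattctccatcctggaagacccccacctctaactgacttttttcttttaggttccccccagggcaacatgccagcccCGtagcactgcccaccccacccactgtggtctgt
KDM6A, chrX:44872938-44873237, plus strand: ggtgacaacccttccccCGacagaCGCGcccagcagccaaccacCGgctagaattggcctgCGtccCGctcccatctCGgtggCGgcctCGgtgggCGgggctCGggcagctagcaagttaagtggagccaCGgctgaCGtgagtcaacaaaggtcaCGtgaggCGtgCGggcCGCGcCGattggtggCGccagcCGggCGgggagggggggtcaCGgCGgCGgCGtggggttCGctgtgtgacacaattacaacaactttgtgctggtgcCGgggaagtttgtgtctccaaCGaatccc

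The upstream KDM6B promoter holds 24 CpG and the KDM6A promoter holds 29, whereas the downstream KDM6B promoter holds 2. The median over all 35116 RefSeq promoters of this length was 14. The other members had between 24 CpG (HDAC2) and 56 (KMT2C) in 300 bases, all above that median, and CREBBP had 36 and 50 at its 2 starts. The downstream KDM6B start was the only one below it among the 11 promoters of the 9 genes. The starts are those of the annotation, and whether transcription begins at the downstream KDM6B start in K562 cells was not tested. The GC box letters GGGCGG, searched on both strands, were found 5 times in the upstream KDM6B promoter, 2 times in that of KDM6A and 0 times in the downstream one. They were also absent from the promoters of HDAC2 and EP300, and 45.0% of all promoters hold them at least once. TATAAA and AGATAA, the letters of a TATA box and of a GATA site, were found in none of the 11 promoters, and 11.5% and 10.3% of all promoters hold them. CCAAT was found 2 times in the KDM6A promoter and 1 time in that of HDAC1, and 34.6% of all promoters hold it. These are counts of letters and not of bound sites.

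**Figure D2:**
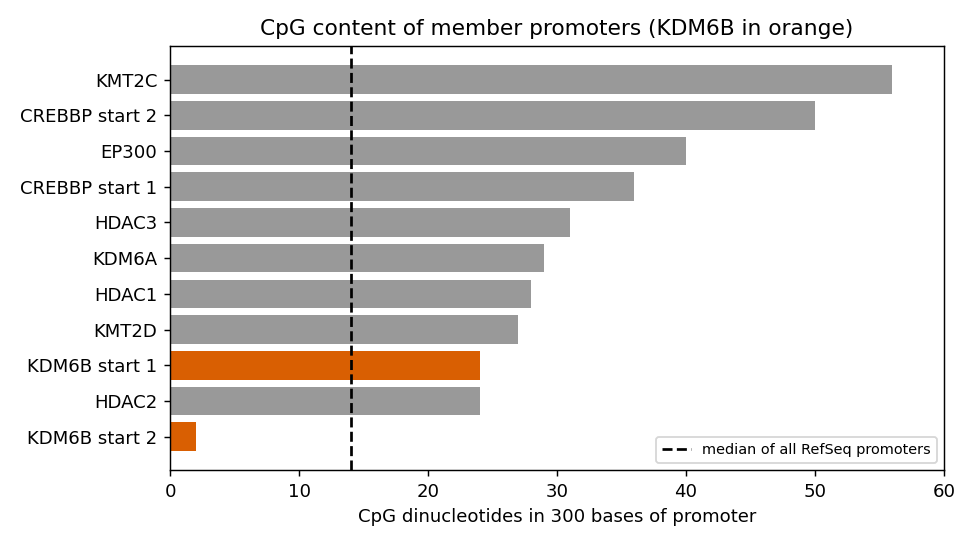
Number of CpG dinucleotides (x axis) in the 300-base RefSeq promoters of the 9 genes, 11 starts in all, with KDM6B in orange. The dashed line is the median of all RefSeq promoters, 14, and the downstream start of KDM6B with 2 CpG is the only bar left of it.

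HDAC1 and HDAC2 held the top of the order. HDAC2 had an FPKM of 40.2 (36.3 to 44) and HDAC1 had 38.9 (35.8 to 41.9). HDAC1 and HDAC2 are paralogs that work in the same SIN3, NuRD and CoREST complexes, and their ratio of 1.03 ranged from 0.866 to 1.23 between the bounds, so neither was resolved as higher. HDAC3, the deacetylase of the NCOR complexes, had 16.4 (13.9 to 18.9), and HDAC2 was 2.45-fold higher (1.92 to 3.16). The FPKM of the 3 genes summed to 95.4. HDAC1 lies on chromosome 1 from 32292086 to 32333635 on the plus strand, HDAC2 on chromosome 6 from 113933028 to 114011308 and HDAC3 on chromosome 5 from 141620876 to 141636870, the latter pair on the minus strand. The pseudogenes of HDAC1 had an FPKM of 0.0473 (HDAC1P2) or were listed at 0 (HDAC1P1).

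The enhancer methyltransferases came next. KMT2C, also called MLL3, had an FPKM of 26.05 (22.9 to 29.2) and KMT2D, also called MLL4, had 18.8 (16.4 to 21.3). The bounds of this paralog pair did not overlap, and KMT2C was 1.38-fold higher, with a range of 1.08 to 1.78. The RefSeq start of KMT2D lies 1020 bp outside the deposited span, whereas all exonic bases of KMT2C lie inside its own, and what this adds to the ratio was not tested. KMT2C is the longest gene of the 9, with 301 kb on chromosome 7 from 152134922 to 152436005, whereas KMT2D has 40.8 kb on chromosome 12 from 49018975 to 49059774, both on the minus strand. KMT2D shares 223 bp at its end with the PRKAG1 entry, which had an FPKM of 14.1 (11.8 to 16.4). The strand setting used for the FPKM is not given in the sources used here, and the strand of PRKAG1 was not compared. Reads in those bases were not assigned to either gene. No other entry with an FPKM of at least 1 overlapped a member, except SEPT7P6 inside KMT2C with 1.13.

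Parts of KMT2C have copies elsewhere in the genome, so it was checked whether windows of its reference sequence could be placed. The 150-base windows of the reference centered on every 10th exonic base of the canonical GENCODE 44 transcript were aligned back to GRCh38. These windows are unspliced and free of read errors, and the aligner was not the one behind the FPKM. How the sequenced reads of KMT2C were placed was therefore not tested. All windows of the other 8 genes, between 200 (HDAC3) and 2090 (KMT2D) each, returned to their own place with a mapping quality of at least 20. In KMT2C, 1692 of 1708 windows (99.1%) did so. The 16 that did not return lay in exons 14, 15, 18, 19, 20 and 21. Of these, 3, all in exon 19, had an identical copy on chromosome 2, and 2 of the 3 also had one on chromosome 1. One of the 3, chr7:152224530-152224679 on the minus strand, is printed with the bases of exon 19 in capitals. The same 150 bases had 5 identical copies elsewhere, among them chromosome 1 from 143465255 to 143465404.
KMT2C, exon 19 window: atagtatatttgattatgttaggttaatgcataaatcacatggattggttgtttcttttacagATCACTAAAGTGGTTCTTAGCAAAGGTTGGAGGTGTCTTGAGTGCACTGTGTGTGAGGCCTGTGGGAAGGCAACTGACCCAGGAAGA

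The BAGE2 entry on chromosome 21, known to derive in part from KMT2C, had an FPKM of 16.9 (15.2 to 18.6). Its part in the KMT2C value was not tested.

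Of the 36 pairs among the 9 genes, 29 had bounds that did not overlap. The share of such pairs among other entries was not computed, so the count is not read as particular to these genes. HDAC2 and HDAC1 formed the top pair and did not differ beyond their bounds. KMT2C followed and was separate from every other gene. KMT2D, HDAC3 and CREBBP overlapped with one another, and CREBBP also overlapped with KDM6A and EP300. KDM6A and EP300 differed by a ratio of 1.03 (0.675 to 1.64). KDM6B stood alone at the bottom, with EP300 as the next gene 5.20-fold higher (2.36 to 18.5).

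Set against all entries with an FPKM of at least 1, HDAC2 was at percentile 92.9 and HDAC1 at 92.6. The percentile was 87.4 for KMT2C, 81.8 for KMT2D, 78.9 for HDAC3, 74.9 for CREBBP, 68.2 for KDM6A and 67.3 for EP300. KDM6B was at percentile 20, the only one of the 9 below the median of these entries. Against protein-coding entries alone, the percentiles were lower for each gene, from 92.5 for HDAC2 to 12.5 for KDM6B.

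**Figure D3:**
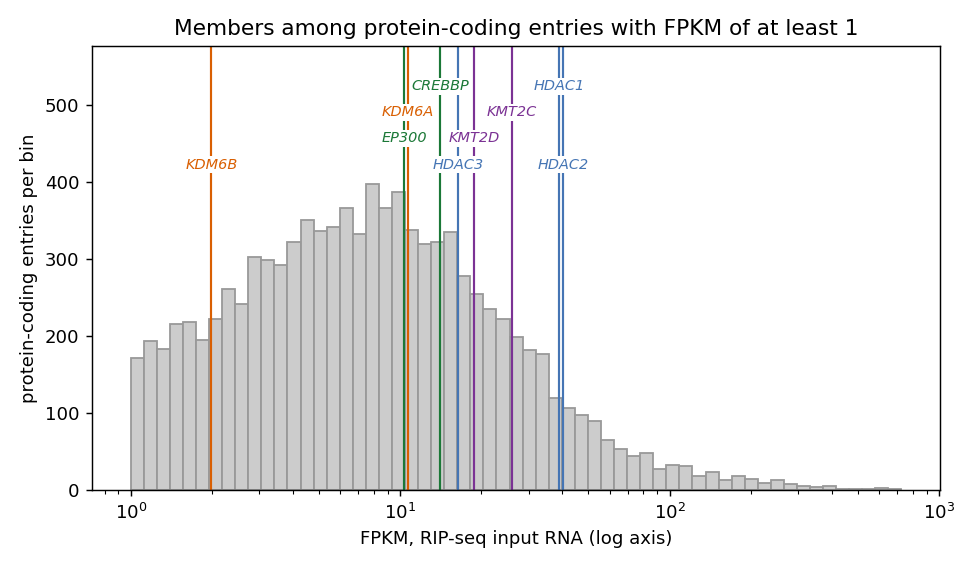
Histogram of the FPKM (x axis, log scale) of the 9728 protein-coding entries with an FPKM of at least 1, with a line for each of the 9 genes in the color of its enzyme class. KDM6B at 1.99 lies in the left flank, EP300, KDM6A, CREBBP and HDAC3 lie between 10.4 and 16.4, and HDAC1 and HDAC2 lie in the right shoulder near 40.2.

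The levels of the opposing methyltransferase are given for scale. EZH2 had an FPKM of 41.6 (38.4 to 44.8). It overlapped with HDAC2 (ratio of EZH2 to HDAC2 1.04, 0.872 to 1.23) and with HDAC1 (1.07, 0.916 to 1.25). EZH2 was 3.88-fold higher than KDM6A (3.03 to 5.12) and 20.9-fold higher than KDM6B (11.7 to 63.8), the enzymes that remove its mark. It was 2.96-fold higher than CREBBP (2.08 to 4.64) and 4.02-fold higher than EP300 (2.96 to 5.79). FPKM of KDM6A and KDM6B summed to 12.7, those of EP300 and CREBBP to 24.4, and those of KMT2C and KMT2D to 44.9. These are RNA levels per length and say nothing of protein amount or activity.

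The partners of the 9 enzymes were read from lists by complex. The counts of each list stand beside 49.2% of all protein-coding entries with an FPKM of at least 1. The MLL3/4 complex partners, which share subunits with the other H3K4 methyltransferase complexes, had an FPKM of at least 1 for 7 of 7 genes, with a median of 8.55. ASH2L, a core subunit, was the highest with 30.2 (26.8 to 33.6), and NCOA6, found in the KMT2C and KMT2D complexes, was the lowest with 4.96 (4.02 to 5.89). KMT2C and KMT2D were thus above the lowest partner, NCOA6, by more than the bounds. The highest partner, ASH2L, lay above KMT2D by more than the bounds and overlapped with KMT2C. Of the other H3K4 methyltransferases, 4 of 4 were at 1 or more, from KMT2A with 18.9 (16.9 to 20.9) to SETD1B with 3.55 (3.17 to 3.93). KMT2A overlapped with KMT2D and lay below KMT2C.

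All 16 HDAC1/2 complex subunits had an FPKM of at least 1, with a median of 13.2. CHD4, the NuRD remodeling ATPase, was the highest with 67.4 (48.3 to 86.6) and GATAD2B, also of NuRD, the lowest with 5.30 (1.72 to 8.88). HDAC1 and HDAC2 were above the median of their subunits, at 38.9 and 40.2. The 5 HDAC3 corepressor subunits were all at 1 or more with a median of 13.0, from NCOR1, the scaffold, with 33.0 (28.9 to 37.1) to TBL1X with 8.55 (7.21 to 9.89). HDAC3 at 16.4 lay inside that range.

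HDAC1 and HDAC2 exceeded every other zinc-dependent deacetylase by more than the bounds. Of the 8 others, 6 had an FPKM of at least 1, with a median of 2.87. HDAC6, a mostly cytoplasmic enzyme, was the highest with 23.5 (19.5 to 27.4), above HDAC3, and HDAC11 the lowest with 0.693 (0 to 1.74). The nuclear sirtuins, which are NAD-dependent deacetylases, had 3 of 3 genes at 1 or more, from SIRT7 with 7.86 (5.90 to 9.82) to SIRT6 with 1.82 (0.846 to 2.79). Of the other lysine acetyltransferases, 10 of 10 were at 1 or more with a median of 7.73. KAT6A with 19.1 (16.1 to 22.1) was the highest and KAT6B with 2.26 (1.85 to 2.66) the lowest, so CREBBP at 14.1 and EP300 at 10.4 lay inside their range.

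Among genes of bromodomain proteins, grouped as H3K27ac readers, 6 of 6 had an FPKM of at least 1 and the median was 18.6. BRD2, which binds acetylated histones, had 63.4 (58.8 to 67.9), above each of the 9 enzymes, and BRPF1 was the lowest with 5.28 (4.15 to 6.40). The PRC2 core had 6 of 6 at 1 or more with a median of 28.4, from RBBP4 with 71.8 (66.9 to 76.8) to EZH1 with 8.48 (6.84 to 10.1). RBBP4 and RBBP7 are also subunits of the HDAC1/2 complexes. EZH1 overlapped with CREBBP, EP300 and KDM6A, and KDM6B lay below it.

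**Figure D4:**
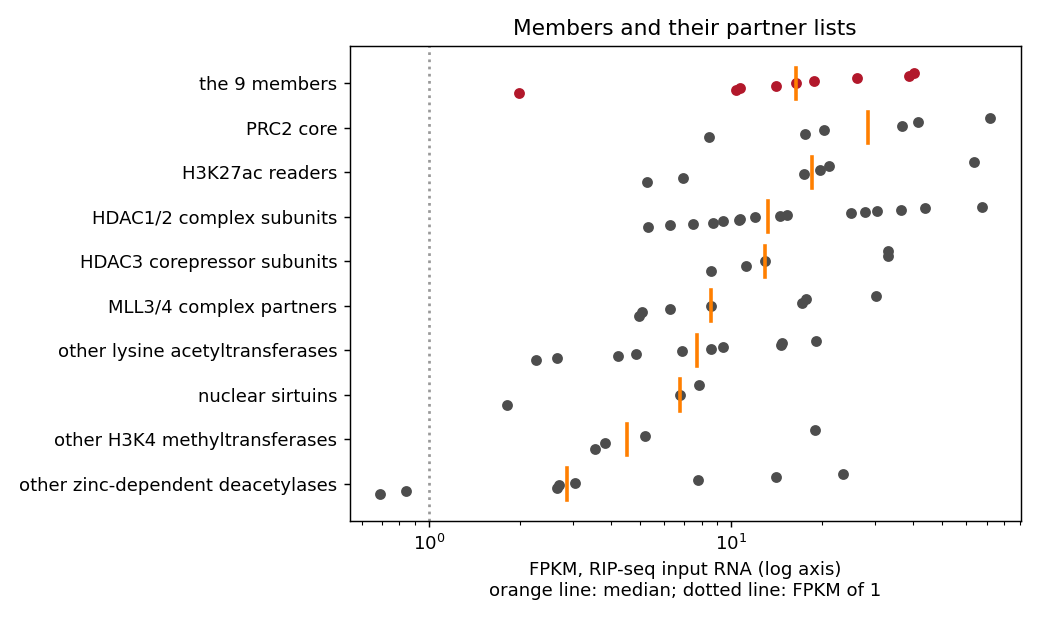
FPKM (x axis, log scale) of the 9 enzymes, in red, and of the genes of 9 partner lists, 1 point a gene and 1 row a list, with an orange line at each median. Only HDAC9 and HDAC11 lie left of the dotted line at an FPKM of 1, and KDM6B is the red point farthest to the left.

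None of the listed EZH2 fragments lay in the 9 genes. Fragments were assigned to the span that held 50% or more of their bases. By this rule 0 of 900 fragments belonged to any of the 9 genes, and none shared a single base with a span or lay within 10 kb of one. Therefore the enzymes have no value in the cytoplasmic, nuclear, polyA+ and polyA- libraries. The 9 spans cover 0.976 Mb together, for which a count of 0 allows up to 3.07 fragments per Mb. Protein-coding entries with an FPKM of at least 1 carried 0.794 fragments per Mb of span, which is under the limit, so a density in the 9 spans equal to it or lower was not detectable with this number of fragments. Further fragments of the study were not analysed here.

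Of all entries with an FPKM of at least 1, 2.44% host a listed fragment, and the share rises with gene length. It was 0.548% for protein-coding entries under 50 kb, the range of HDAC1, HDAC3, KMT2D and KDM6B. It was 2.25% from 50 to 100 kb, where HDAC2 and EP300 fall, and 4.97% from 100 to 200 kb, where CREBBP falls. The place of HDAC2 rests on its deposited span of 78.3 kb, and its RefSeq start lies 40160 bp inside that span. From 200 to 400 kb, the range of KMT2C and KDM6A, 60 of 439 entries (13.7%) host a fragment. KMT2C and KDM6A are thus the members for which a fragment was most often found in genes of like length, and the majority of those genes host none as well.

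**Figure D5:**
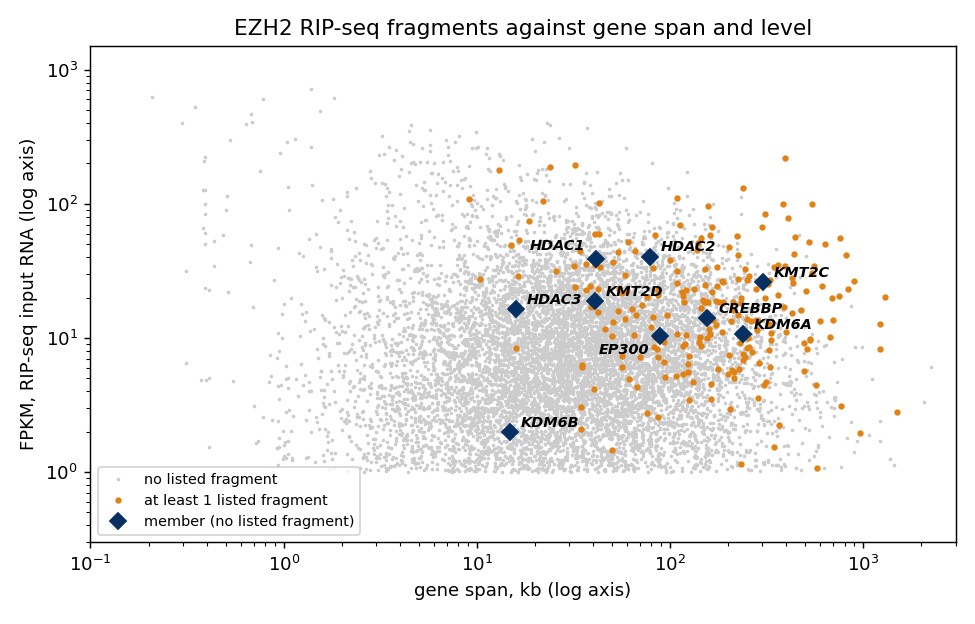
Gene span in kb (x axis, log scale) against FPKM (y axis, log scale) of the protein-coding entries with an FPKM of at least 1. Entries with a listed EZH2 fragment are orange, those without are gray, and the 9 enzymes are blue diamonds, of which KMT2C and KDM6A lie among the long genes where orange points are frequent.

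The nearest listed fragment of each gene lay 0.939 Mb or more away. For KMT2C it lay 0.939 Mb from the gene, on chromosome 7 from 153375212 to 153375597, and had 1 cytoplasmic, 2 nuclear, 3 polyA+ and 4 polyA- reads, which is too few to compare fractions. For KDM6B it lay 0.949 Mb away, on chromosome 17 from 6888518 to 6890851, with 10 cytoplasmic, 44 nuclear, 46 polyA+ and 41 polyA- reads. For HDAC1, HDAC2, HDAC3, KMT2D and CREBBP the distance was between 2.76 and 6.26 Mb. EP300 and KDM6A were 17.2 and 28.3 Mb from the next fragment of their chromosomes. Chromosome 22, with EP300, held 11 listed fragments and chromosome X, with KDM6A, held 43, against 138 on chromosome 7. The distance expected from such counts was not computed.

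Among the 59 partner genes outside PRC2, 1 hosted listed fragments, beside the 2.44% of all entries with an FPKM of at least 1. It was TBL1X, a subunit of the HDAC3 corepressor, which held 3 in its 256 kb on chromosome X and falls in the length range where 13.7% of entries host one. Its reads are given as deposited, without scaling for depth, and over all listed fragments the nuclear library had 13.3 times the reads of the cytoplasmic one and the polyA- library 1.83 times those of the polyA+ one. The one from 9503113 to 9507725 had 12 cytoplasmic and 257 nuclear reads, 21.4 nuclear for each cytoplasmic read (exact 95% Clopper-Pearson interval 12.1 to 42.0, counting error only), and 306 polyA- against 55 polyA+ reads, a polyA- to polyA+ ratio of 5.56 (4.16 to 7.56). The next one, from 9516227 to 9520153, had 1 cytoplasmic, 47 nuclear, 17 polyA+ and 64 polyA- reads, and the third had at most 7 reads in any library. As deposited, 88.4% of all listed fragments had at least 2-fold more nuclear than cytoplasmic reads and 64.3% at least 2-fold more polyA- than polyA+ reads. For these shares a cytoplasmic or polyA+ count below 3 was set to 3, and the median cytoplasmic count was 2. Scaled to the sums over the listed fragments, these shares were 20.8% and 45.3%. The scaling divided the nuclear or polyA- reads and left the floor at 3 reads, and the part of the floor in the lower shares was not separated. The ratios of the first TBL1X fragment scaled to the sums were 1.61 and 3.04. With the median ratio set equal, its nuclear ratio was 0.973, which is not resolved from 1. The median ratio, over fragments with reads in both libraries, was 22 and lies inside its interval of 12.1 to 42.0. Of the 6 PRC2 core genes 1 hosted fragments, EZH2 with 4, and the other five hosted 0.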

How the data were processed

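Wild-type K562 RNA was measured in 5 libraries of the series, and the other samples were not analysed here. Per the study's methods, STAR placed adapter-trimmed (TrimGalore) reads on GRCh38 using GENCODE 26 models, after which duplicate pairs and alignments below a mapping quality of 20 were dropped. The FPKM of the input RNA and their confidence bounds, whose level is not stated, were estimated by the authors with cuffdiff. For the 4 fractions the authors deposited raw read counts on listed EZH2 fragments, made with featureCounts.

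The 9 genes and all lists were chosen with earlier results of these data known. The text names all 9 genes, the highest and lowest gene of each list, fragments in their spans and the nearest ones. A pair of genes was called different only where bounds did not overlap. With 1 library a group, no p-value was computed. Span starts in the file count from 0, so 1 was added. Protein-coding status came from GENCODE 44, which matched 98.7% of entries. Ranges of a ratio divide opposite bounds. Fragment counting was tested on simulated data. Windows were aligned with minimap2 2.31 with its short-read preset, and promoter sequences are those of RefSeq on GRCh38.p14, where 11 starts matched the 9 genes. BAGE2, the HDAC1 pseudogenes, KDM7A and PHF8 were added after values were seen. Python 3.11.15, numpy 2.4.6, pandas 2.3.3, scipy 1.17.1 and matplotlib 3.10.9 were used. Alternatives were other thresholds of FPKM, other pools of entries, other overlap rules and other pseudocounts.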

Additional observations from a re-analysis of the deposited data

How the results depend on the processing

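The median percentile of the 9 genes, 78.9 among entries with an FPKM of at least 1, was 89.9 among entries with an FPKM of at least 0.1 and 95.4 among all entries, since low entries were added to the pool. It was 75.4 among protein-coding entries. With the lower bound in place of the FPKM, or with a threshold of 5, 8 of the 9 genes passed instead of 9, KDM6B being lost in both. The number of pairs called different was 29 also when the difference was set against its standard error from the bounds. The number of fragments in the 9 spans was 0 under all 3 other overlap rules. The order of the enzyme classes by median FPKM was the same with means of log2(FPKM + 1) and log2(FPKM + 0.1). With the threshold of 5, the other lysine acetyltransferases had 6 genes in place of 10, the other H3K4 methyltransferases 2 in place of 4 and the other zinc-dependent deacetylases 3 in place of 6. None of the 9 genes holds a fragment, so the ratios of reads were recomputed for the partner TBL1X and all listed fragments. The share of listed fragments with 2-fold more nuclear than cytoplasmic reads, 88.4% as deposited, was 20.8% with libraries scaled to their sums, 7.44% with the median ratio set equal and 96.4% among fragments with at least 10 reads. For polyA- over polyA+ reads the share of 64.3% was 45.3%, 20.6% and 70.2% in the same order. In all these shares a cytoplasmic or polyA+ count below 3 was set to 3, also after scaling. The part of this floor in the lower shares was not separated. The first TBL1X fragment had a nuclear ratio of 1.61 when scaled to the sums and 0.973, not resolved from 1, with equal medians. Its polyA- ratio was 3.04 and 1.57. No paired analysis was possible because each group analysed is 1 library and no result comes from a test. Depth is unknown for the FPKM, and with 900 fragments a single gene rarely hosts one.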

Other observations

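KDM7A and PHF8, of a demethylase family that removes lower methylation states from histone lysines, were looked up after the other values had been seen. Action on H3K27 was not examined for either. PHF8 had an FPKM of 14.6 (bounds 11.0 to 18.2), which overlapped with KDM6A at 10.7 (8.75 to 12.7). KDM7A had 2.27 (1.91 to 2.63), which overlapped with KDM6B at 1.99 (0.702 to 3.28).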
